A study of Ictalurus punctatus and Ictalurus punctatus x Ictalurus furcatus with 18 samples.

Results

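The response of the Red River strain of channel catfish to 6 weeks of high temperature was measured in the liver. It is described from 6 RNA-seq libraries out of the 18 sequenced, chosen by their labels: pools H1, H4 and H7 from the high regime and pools L2, L6 and L9 from the low regime. In the high regime the water cycled daily between 32 and 36 °C, and in the low regime between 27 and 31 °C. Fingerlings were pure Red River fish (RRxRR in the labels), and the RNA of 3 fish from the same tank was pooled for each library, which hides how the fish of a tank vary. The other 12 libraries, of Delta Select channel catfish and Delta Select hybrids, entered the statistical model to estimate the spread between tanks. They also entered the filter on low counts and the scaling. The comparison asks how the liver of a channel catfish strain differs after a chronic trial in water near the top of its thermal range from that of fish kept in water suited to growth.

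Catfish are ectotherms, so the temperature of the water sets the temperature of the liver and the rate of its chemistry. The fish liver makes most plasma proteins and stores and releases energy, and a few such transcripts usually fill a large part of its mRNA. In warmed fish, molecular chaperones that refold damaged proteins are known to rise during acute heat, whereas weeks of warm water allow a slower resetting of metabolism. Which of these genes were measured here could not be read from the table. The 144746 transcripts carry assembly identifiers only, and 0 of these were found in the RefSeq gene table of the species. Transcripts are therefore described by abundance, direction and spread, and 4 are named by identifier. For the same reason no liver marker was checked, and a fall in a transcript cannot be told apart from a fall in the share of cells that make it.

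The 6 libraries held between 36242058 and 49303983 reads on transcripts. All 6 lay far nearer to channel-like than to hybrid libraries on a check of type that did not use them. CPM are reads scaled to the TMM-adjusted library total. The check used the 10 transcripts at 10 CPM or more in every hybrid library and at most 0.1 CPM in H3, H5, H9 and L8. These are the channel-like Delta Select libraries, and L3 and L5, already known to stand apart, took no part in the choice. The summed level was between 0.904 and 4.66 CPM in Red River libraries. It was 238.9 to 415.0 CPM in hybrid libraries and 0.24 to 0.343 CPM in the channel-like ones, where the choice itself made it high and low. The Red River sums were thus above those of the channel-like libraries. The libraries labelled Delta Select channel L3 and L5 reached 290.0 and 102.8 CPM, so they stood apart from their label, and counts of calls are also given without them.

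A minority of liver transcripts were called as different between the temperatures in Red River fish, and more of the calls were rises than falls. Of 96799 transcripts tested, 5890 were called at an adjusted p under 0.05 (edgeR, quasi-likelihood, Benjamini-Hochberg), which is 6.08%. Rises numbered 3628, or 3.75% of those tested, and falls 2262, or 2.34%. Rises made up 61.6% of the calls, and the median log2 fold change over all transcripts tested was 0.00. The TMM scaling itself holds this median near 0, so it does not show that there was no general shift. Without L3 and L5, rises were 52.2% of the calls, with 3882 rises and 3549 falls. The share was also lower without H3 alone, at 55.3%, and without H9 alone, at 54.3%. The median log2 fold change over all transcripts tested was then -0.034, -0.035 and -0.036, in the same order. Whether the balance of calls moves with this small offset was not tested. The filter on low counts used all 18 libraries, so some of the 96799 transcripts had no Red River reads. With Red River libraries alone, 7568 of 80741 transcripts were called, and 57.6% of these calls were rises. With all libraries, rises were also the larger changes. Their median log2 fold change was 1.25, against -0.97 for falls. Of the rises 2368 exceeded 2-fold, 755 exceeded 4-fold and 137 exceeded 16-fold, while 1069, 191 and 21 falls passed the same limits. Of the rises, 34.7% were changes of at most 2-fold, and of the falls 52.7%.

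In most calls the high- and low-temperature pools did not overlap, which is largely built in because the calls were made from these same pools. In 3607 of the rises all 3 high-temperature pools lay above all 3 low-temperature pools, and in 2240 of the falls all 3 lay below, which together is 99.3% of the calls. Among all 96799 transcripts tested, 13618 had the high-temperature pools above and 12343 below, so separation of the pools was far more common than a call. A large difference was not enough for a call either. Of the 8906 transcripts that differed by more than 2-fold, 5469 were not called. These counts have no lower limit on level. They include transcripts with very few Red River reads, whose fold rests on those few reads. At 1 CPM or more, 36 transcripts that differed by more than 16-fold were not called. Of these, 26 had at least 90% of their summed level in 1 pool.

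**Figure D1:**
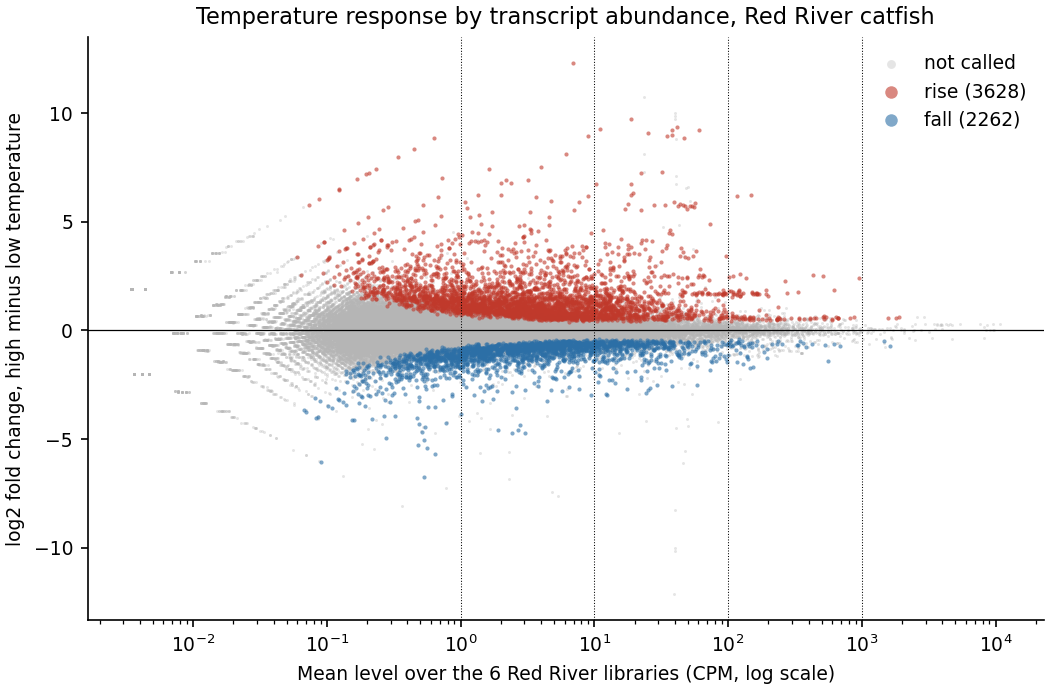
Each point is 1 of the transcripts tested, with its mean level over the 6 Red River libraries in CPM on a log axis and its log2 fold change, high minus low temperature, on the other axis. Dotted lines part the abundance classes. The 3628 rises reach further from 0 than the 2262 falls, and of the calls over 16-fold 137 are rises and 21 are falls.

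The rise that added most reads was that of k82:1053257, which ranked 83 by mean level among all transcripts. It stood at 1172, 1937 and 1695 CPM in H1, H4 and H7, against 325.0, 229.6 and 337.8 CPM in L2, L6 and L9. The lowest high-temperature pool was thus far above the highest low-temperature pool. The means were 1601 ± 390.9 CPM at the high and 297.4 ± 59.1 CPM at the low temperature (SD, n = 3 and 3). The log2 fold change was 2.43 ± 0.29 (SE; edgeR, adjusted p = 7e-05).

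Where the mean level reached 3 on the log2 CPM scale and the pools did not overlap, the largest fold of a rise called in each fit that left out 1 Red River library was that of k86:237239. It had 53.8, 36.7 and 22.9 CPM in H1, H4 and H7, against 0.112, 0 and 0.0248 CPM in L2, L6 and L9. Every high-temperature pool held it, and the low-temperature pools held 5 reads in all. Summed reads gave a ratio of 946 with an exact 95% counting interval of 405 to 2914, which does not cover the spread between tanks. The log2 fold change was 9.74 ± 1.18 (SE; edgeR, adjusted p = 0.000244), and limma-voom, at 10.01, did not call it (adjusted p = 0.0513).

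The fall that removed most reads was that of k86:783505, which ranked 54 by mean level. It stood at 1176, 1211 and 1274 CPM in H1, H4 and H7, against 2118, 1636 and 2278 CPM in L2, L6 and L9. The high-temperature pools were close together, and the low-temperature pools were higher and more scattered, at 1220 ± 49.6 against 2011 ± 334.2 CPM (SD, n = 3 and 3). The log2 fold change was -0.72 ± 0.17 (SE; edgeR, adjusted p = 0.0113). It was -0.69 without H1 (adjusted p = 0.0508) and -0.62 without L9 (adjusted p = 0.0637), and in neither case called.

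Under the same limits, the largest fold of a fall called in each of those fits was that of k86:844624. Larger called folds occurred in lower classes, down to a log2 fold change of -6.73 under 1 CPM for falls and up to 12.3 from 1 to 10 CPM for rises. From 10 to 100 CPM, the class of k86:844624, the largest called fall was -2.96, and it did not meet all these limits. The levels of k86:844624 were 9.62, 12.6 and 10.9 CPM in H1, H4 and H7, against 38.0, 83.0 and 75.04 CPM in L2, L6 and L9. The high-temperature pools agreed closely, and L2 was the lowest of the low-temperature pools. The high and low means were 11.0 ± 1.51 and 65.4 ± 24.0 CPM (SD, n = 3 and 3), and the log2 fold change -2.57 ± 0.42 (SE; edgeR, adjusted p = 0.00173).

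**Figure D2:**
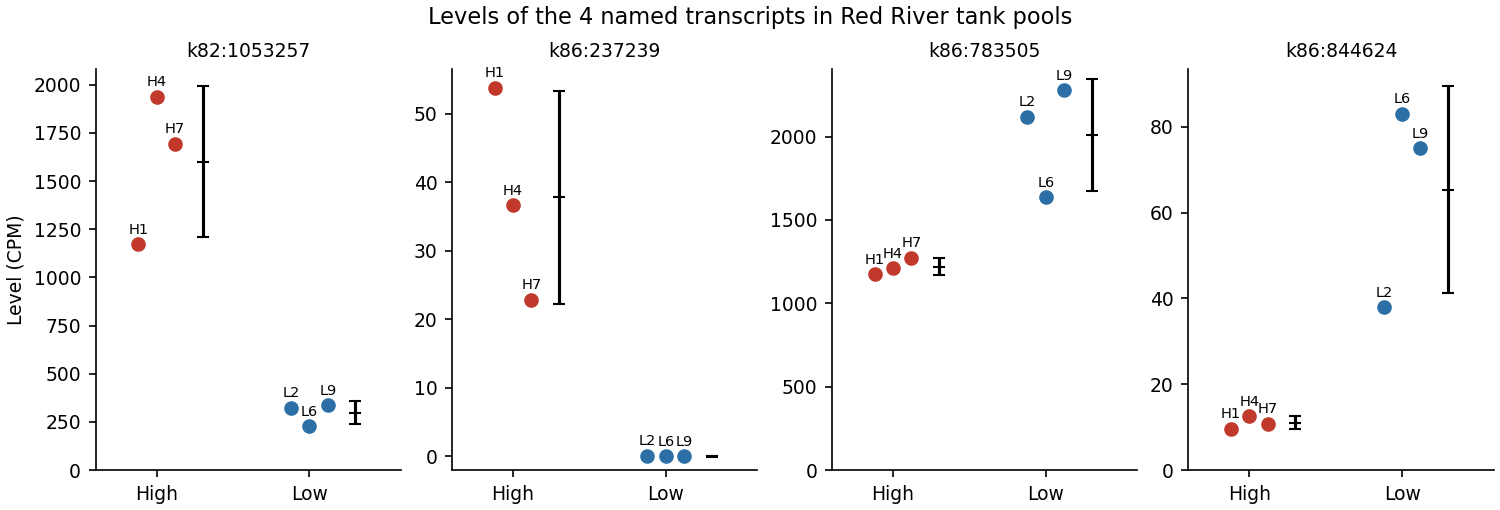
Levels of the 4 named transcripts in CPM in each tank pool, high temperature at the left and low temperature at the right of each panel, with the mean and SD of the 3 pools as a bar beside them. In no panel do the regimes overlap, and k86:237239 is near 0 in every low-temperature pool.

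Calls were not spread evenly over abundance classes, which were set by the mean level over the 6 libraries. Under 1 CPM, 1318 of 48367 transcripts tested were called, which is 2.73%. From 1 to 10 CPM it was 3228 of 37802, or 8.54%, and from 10 to 100 CPM it was 1192 of 9122, or 13.1%. Above that the share was lower, with 147 of 1430 (10.3%) from 100 to 1000 CPM and 5 of 78 (6.41%) at 1000 CPM and more. Low counts need a larger change to be called, so these shares do not measure how many transcripts responded in each class, and differences between classes were not tested. All 47947 transcripts left out by the filter on low counts were under 1 CPM.

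With all libraries, rises outnumbered falls in each class, and the balance was similar. Classes were not counted again without L3 and L5, where rises were 52.2% of all calls. Rises were 60.3% of the calls under 1 CPM, 61.5% from 1 to 10 CPM, 62.7% from 10 to 100 CPM and 67.3% from 100 to 1000 CPM. At 1000 CPM and more there were 3 rises and 2 falls. The size of the called changes fell with abundance. Low counts need a larger change to be called, so these sizes do not show that rare transcripts responded more strongly. The median log2 fold change of the rises was 1.72 under 1 CPM, 1.11 and 1.07 in the next classes, 0.63 from 100 to 1000 CPM and 0.60 at 1000 CPM and more. For the falls it was -1.50, -0.89, -0.71, -0.68 and -0.59 in the same order.

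Among the calls, very large rises occurred well into the abundant range, and very large falls did not. Rises over 16-fold numbered 43 under 1 CPM, 51 from 1 to 10 CPM, 41 from 10 to 100 CPM and 2 from 100 to 1000 CPM. Falls over 16-fold numbered 16 under 1 CPM and 5 from 1 to 10 CPM, with 0 at higher levels. These counts cover called transcripts only. From 10 to 100 CPM, differences over 16-fold in either direction also occurred among transcripts that were not called. Among the 20 most abundant transcripts edgeR called 0, and their log2 fold changes lay between -0.38 and 0.31. Among the 100 most abundant it called 5 rises and 2 falls, and the median absolute log2 fold change of the 100 was 0.20. Of all transcripts tested 6.08% were called, so these small counts alone do not set the abundant transcripts apart.

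**Figure D3:**
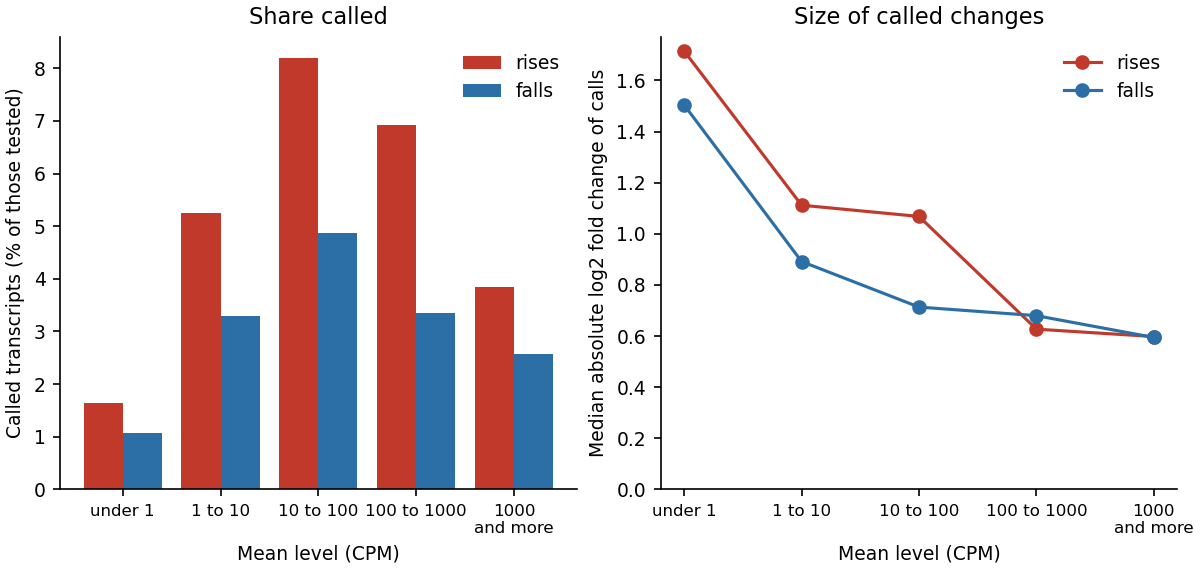
The left panel gives rises and falls as a percentage of the transcripts tested in each abundance class, and the right panel the median absolute log2 fold change of the calls, both against the mean level in CPM. The share called peaks from 10 to 100 CPM in both directions, at 8.19% and 4.88%. The size of the called changes is largest under 1 CPM, where low counts need a larger change to be called.

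With absence set at no more than 3 reads over the pools of a regime and presence at 1 CPM in every pool, few transcripts were absent in one regime and present in the other. At the low temperature 3 transcripts had at most 3 reads over the 3 pools and at least 1 CPM in every high-temperature pool. All 3 were called, beside 6.08% of all transcripts tested. They were chosen on the levels that the calls use, so this was largely built in. The largest of them averaged 13.8 CPM at the high temperature, and k86:237239, with its 5 low-temperature reads, lies just outside the limit. For the reverse pattern, at most 3 reads at the high temperature and at least 1 CPM in every low-temperature pool, there were 0 transcripts.

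The share of each library's reads taken by called transcripts shows the weight of the response. Transcripts that rose held 7.37%, 8.59% and 8.0% of the reads in H1, H4 and H7, against 3.78%, 3.81% and 4.08% in L2, L6 and L9. Transcripts that fell held 2.20%, 2.06% and 2.19% in H1, H4 and H7, against 3.85%, 4.22% and 3.84% in L2, L6 and L9. These sets were chosen for their direction, so the shares are given with no test. The 10 rises with the largest difference made up 15.4% of the gain in reads and the 100 largest 45.7%. Most of the gain lay at middle and high abundance, with 41.7% of it from 10 to 100 CPM and 37.7% from 100 to 1000 CPM, while the 795 rises under 1 CPM made up 1.08%. The loss was laid out in a like way, with 41.4% and 31.9% of it in those classes.

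No difference between the temperatures was detectable in the share of reads held by the abundant transcripts or by any abundance class. The 100 most abundant transcripts held 27.2%, 27.5% and 26.9% of reads in H1, H4 and H7, against 27.8%, 24.6% and 27.3% in L2, L6 and L9. The means were 27.2% ± 0.30 and 26.6% ± 1.74 (SD, n = 3 and 3; two-sided exact permutation p = 0.9). The difference, high minus low, was 0.66 percentage points with all pools and -0.34 without L6, so its direction rested on that pool. At 1000 CPM and more it was 0.63 with all pools and -0.38 without L6, under 1 CPM it was -0.09 and 0.06, and from 1 to 10 CPM it was -0.24 and 0.37. For the 5 abundance classes the same exact permutation test gave p between 0.5 and 1.0, and with 3 pools against 3 it cannot give less than 0.1.

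Tank pools of one regime were alike, and pools of different regimes were further apart. Over the 48432 transcripts at 1 CPM or more, the median absolute log2 difference between high-temperature pools was 0.20 for H1 and H4, 0.19 for H1 and H7 and 0.17 for H4 and H7. Between low-temperature pools it lay between 0.18 and 0.20. Between a high-temperature and a low-temperature pool it lay between 0.26 and 0.28 in all 9 pairs. The share of transcripts that differed by more than 2-fold was 1.11% to 1.91% within regimes and 5.30% to 6.96% across them.

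The spread between tanks was similar at both temperatures. The biological coefficient of variation (the tank-to-tank CV beyond counting noise, common dispersion in edgeR) was 19.6% among high-temperature and 18.9% among low-temperature pools. In the other types it was 22.8% in hybrids and 22.9% in Delta Select fish at the high temperature, and 20.7% and 32.7% at the low temperature, the last with L3 and L5 included. The median SD of log2(CPM + 0.5) was 0.15 among high-temperature and 0.16 among low-temperature pools. The abundant classes departed from this. At 1000 CPM and more the median SD was 0.09 at the high and 0.23 at the low temperature, and from 100 to 1000 CPM it was 0.15 and 0.20.

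The wider spread of abundant transcripts at the low temperature went with L6. In this pool 73 of the 78 transcripts at 1000 CPM and more lay below the mean of L2 and L9, with a median log2 deviation of -0.36. From 100 to 1000 CPM it was 1211 of 1430, with a median of -0.25, and from 1 to 10 CPM the median was -0.01. The median absolute log2 difference at 1000 CPM and more was 0.13 between L2 and L9, and 0.37 between L6 and each of them. Transcripts at 1000 CPM and more held 22.5% of the reads of L6, against 24.8% to 25.8% in the other 5 pools. The scaling factor of L6 was 1.15, and those of the other pools lay between 0.96 and 1.02. CPM are divided by this factor, which lowers every level of L6 relative to its share of reads. Part of the deviations in CPM above, and of the wider SD, thus comes from the scaling. What sets L6 apart was not tested. Without L6, 3470 transcripts were called, of which 2002 rose and 1468 fell.

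**Figure D4:**
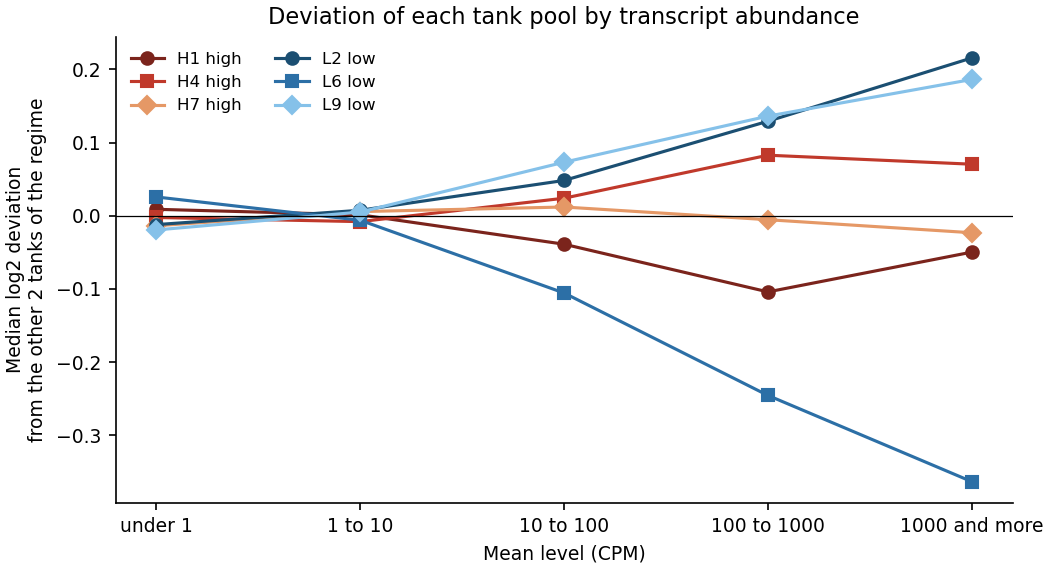
For each tank pool, the median log2 deviation from the mean of the other 2 pools of its regime, by abundance class in CPM. The line of L6 goes down to -0.36 at 1000 CPM and more, where L2 stands at 0.22 and L9 at 0.19.

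Among the transcripts with the strongest rise the high-temperature pools were uneven, and not always in the same order. Of the 755 rises over 4-fold, H4 was the highest pool in 397, H7 in 193 and H1 in 165, and H1 was the lowest in 387. Of the 137 rises over 16-fold, H4 was the highest in 74, H1 in 53 and H7 in 10, and H7 was the lowest in 95. The highest pool exceeded the lowest by a median ratio of 1.58 in these 137, with 0.5 CPM added to each level, and by 1.33 over all rises. The median SD of log2(CPM + 0.5) among rises over 4-fold was 0.33 at the high and 0.14 at the low temperature. Among falls over 4-fold it was 0.13 at the high and 0.28 at the low temperature. The added 0.5 CPM narrows the spread of low levels, which are those of the low-temperature pools for rises and of the high-temperature pools for falls.

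Each pool was also read against calls made without it. On a scale with the remaining low-temperature pools at 0 and the remaining high-temperature pools at 1, the median position of H1 over the 2955 rises called without it was 0.76. That of H4 over 2355 rises was 1.06 and that of H7 over 2558 rises was 0.92. L2, L6 and L9 stood at 0.08, 0.00 and 0.09 over 2442, 2002 and 2403 rises. Of the high-temperature pools H1 was the nearest to the midpoint. It lay on the high side of the midpoint in 83.0% of them, against 91.4% for H4 and 91.2% for H7. The low-temperature pools lay on the low side in 91.7% (L2), 94.6% (L6) and 92.6% (L9).

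Falls were less sharply repeated than rises in the left-out pool. For falls called without them, H1, H4 and H7 lay on the called side of the midpoint in 78.7%, 89.9% and 86.5%, and L2, L6 and L9 in 81.7%, 83.5% and 82.1%. The median positions were 0.78, 0.91 and 0.85 for H1, H4 and H7, against 0.16, 0.11 and 0.17 for L2, L6 and L9. In each of the 6 pools the share was lower for falls than for rises, and the difference was not tested. With all pools, called falls were also the smaller changes, at a median log2 fold change of -0.97 against 1.25. Whether the shares differ at equal size of change was not tested.

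**Figure D5:**
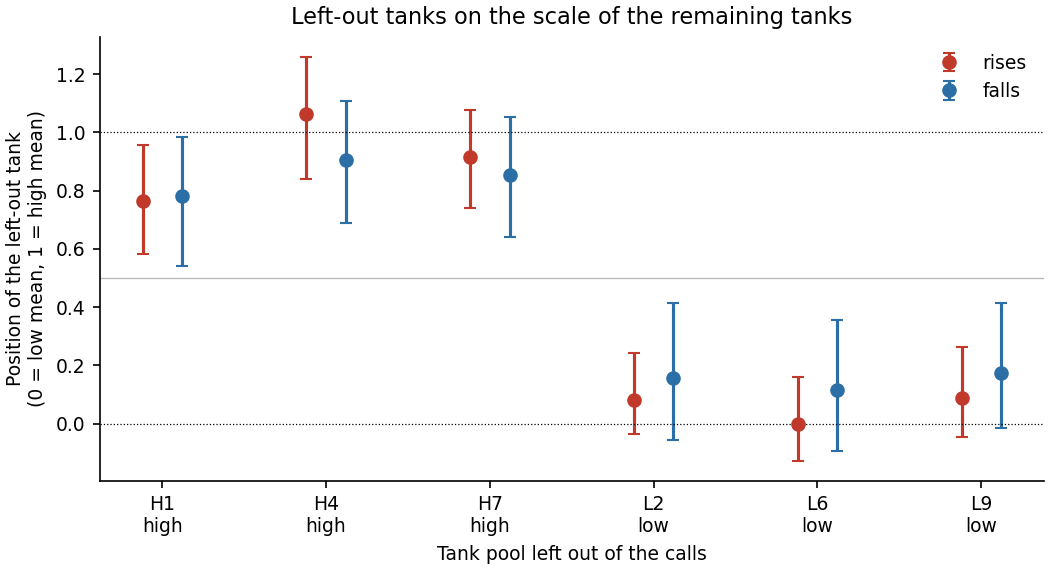
Position of each pool over transcripts called without it, where 0 is the mean of the remaining low-temperature pools and 1 that of the remaining high-temperature pools. Points are medians and bars run from the lower to the upper quartile. H4, at 1.06 for rises, stands highest, and H1, at 0.76, is the nearest to the midpoint.

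Many calls were lost when 1 or another pool was left out. Of the 3628 rises, 1640 were called in each of the 6 fits that left out 1 Red River pool, which is 45.2%, and 253 were called in none of them. Of the 2262 falls 653 were called in each, or 28.9%, and 234 in none. Calls in every fit were the larger changes, with a median log2 fold change of 1.65 for rises and -1.19 for falls. They were most common from 10 to 100 CPM, at 58.6% of the rises and 35.7% of the falls. Leaving out H4 gave a total of 3416 calls, leaving out H7 gave 3753, L2 3854 and L9 3791, and rises outnumbered falls in each. Rises numbered 2355 without H4 and 2403 without L9. Falls numbered 1368 without H1, 1061 without H4, 1195 without H7, 1412 without L2 and 1388 without L9.

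Whether the Red River response differed from the mean response of the other types was tested as an interaction. EdgeR called 0 of 96799 transcripts (0%), with 7897 at an unadjusted p under 0.05 and a smallest adjusted p of 0.0565. Limma-voom called 0, and DESeq2 called 114. Without L3 and L5 edgeR called 3, without H1 it called 2 and without H9 it called 8. Without L8 it called 228, and the low-temperature Delta Select group then held L3 and L5 alone.

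The 4 named transcripts were set beside the other types. They were chosen for large changes in Red River fish, which tilts these comparisons toward a larger Red River response. For k86:844624 the log2 fold change was -2.57 ± 0.42 for the Red River strain, beside 0.20 ± 0.40 for Delta Select and -0.72 ± 0.40 for the hybrid (SE). The Delta Select pools held 35.3, 34.7 and 15.6 CPM at the high temperature (H3, H5 and H9), against 27.2, 20.4 and 27.0 CPM at the low temperature (L3, L5 and L8). The difference of the Red River response from the mean of the others was -2.30 ± 0.50 on the log2 scale (edgeR, adjusted p = 0.382), so it did not pass. The rise of k82:1053257 was 2.43 on the log2 scale in Red River fish, beside 1.81 for Delta Select and 1.92 for the hybrid. The Delta Select value includes L3 and L5, at 628.9 and 357.8 CPM, and against L8 alone, at 236.4 CPM, the log2 ratio of the means was 2.60, above the Red River value. That ratio was added after the data were seen and has no test. The fall of k86:783505 was -0.72 in Red River fish, beside -0.84 for Delta Select and -0.98 for the hybrid. The differences of these 2 from the mean of the others were 0.56 ± 0.34 and 0.19 ± 0.20 (SE; edgeR, adjusted p = 0.693 and 0.838). For k86:237239 the rise was 9.74 in Red River fish, beside 6.88 for Delta Select and 9.81 for the hybrid, with a difference of 1.39 ± 2.40 (SE; edgeR, adjusted p = 0.914).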

How the data were processed

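Liver RNA-seq libraries (TruSeq version 2, single-end reads of 50 bases, per the labels' protocols) were analysed from the raw read counts per assembled transcript that the authors deposited. The submitters' processing notes name Bowtie2 2.1.0, R 3.1.0 and DESeq 1.12.1. How transcripts were assembled and reads counted, with or without strand, was not given in the sources used here, so transcripts of 1 gene or of paralogs may share reads. The row with no transcript, 24.3% to 25.2% of Red River reads, was left out. The 0 matches of identifiers are to the RefSeq gene table of assembly Coco_2.0.

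Counts of all 18 libraries were fitted in edgeR 4.0.16 (R 4.3.3; TMM, robust quasi-likelihood, 1 mean per group, filterByExpr with minimum count 10 and minimum total 15). Contrasts are high minus low, with adjusted p under 0.05 called. The SE of a log2 fold change was worked back from the test, as its absolute value over the square root of the F statistic. It is approximate, most of all where a group is near 0 reads. CPM used the TMM factors. No pair of Red River pools within a regime agreed within sampling noise (chi-square of 9.58 to 16.2 per degree of freedom). Shares of reads were compared by exact permutation. The test was run on simulated counts first. Alternatives were other scaling, DESeq2 1.42.0, limma-voom (limma 3.58.1), other filters, subsets of libraries and each library left out.

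For each direction 2 transcripts were named. One had the largest difference in mean CPM among calls with pools that did not overlap. The other had the largest log2 fold change among such calls made in all 6 fits without 1 Red River pool, at a mean level of at least 3 on the log2 CPM scale. The libraries, rules and classes were chosen with earlier results of these data known.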

Additional observations from a re-analysis of the deposited data

How the results depend on the processing

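The Red River totals of calls, rises and falls stayed within 1.5 times the reported counts under other scaling, DESeq2, limma-voom, other filters, without the 20 most abundant transcripts and with Red River libraries alone, where 7568 were called. Without L3 and L5, falls numbered 3549. Leaving out each of the 18 libraries in turn gave 3416 to 7095 calls, 2002 to 4094 rises and 1061 to 3001 falls. Rises were 52.2% to 68.9% of calls over all these fits. The difference from the other types had 0 calls in edgeR, 114 in DESeq2, 1 with no filter on low counts, 3 without L3 and L5, and 0 to 228 with 1 library left out. The 4 named transcripts kept their direction in every fit, but they were chosen for pools that did not overlap, so this was largely fixed beforehand. The fits that lost their calls are given above. The ratio of tank SDs, high to low, lay between 0.98 and 1.01. Counting noise is largest under 1 CPM. Fits without 1 library rest on fewer tanks. Calls were fewer than the reported 5890 in some of these fits and more in others, such as 7095 without L8. What causes these moves was not tested. No paired analysis was possible because the library codes of the high (1, 4, 7) and low (2, 6, 9) Red River groups share no number.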

Other observations

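A few transcripts were found almost wholly in 1 tank. Of those at 1 CPM or more on average, 29 had at least 90% of their summed level in 1 of the 6 Red River pools. H1 held 16 of them, at a median of 239.4 CPM and 0.307% of its reads. L6 held 6, at a median of 239.9 CPM and 0.170% of its reads, and L9 held 7, at a median of 13.2 CPM. H4, H7 and L2 held 0. EdgeR called 2 of the 29, beside 6.08% of all transcripts tested, so this count does not set them apart. Of 36 transcripts that differed by more than 16-fold at 1 CPM or more and were not called, 26 belong to this set.

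The balance of calls varied with the assembly k-mer size in the identifier. Rises were 54.1% of calls among transcripts with k = 50, whose median level was 0.51 CPM, and 71.5% among those with k = 86, whose median level was 3.01 CPM. These were the lowest and highest shares among the k-mer sizes. By abundance class the share lay between 60.0% and 67.35%. The variation with k-mer size was noticed in the data, and neither it nor a link with level was tested.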
